A study of Mus musculus with 4 samples.

Results

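The transcription factors that set up and maintain the B lymphocyte lineage were followed in whole tibial bone marrow of obese mice with and without treadmill exercise. They are the 10 genes Pax5, Ebf1, Tcf3, Ikzf1, Foxo1, Bach2, Pou2af1, Irf4, Spib and Bcl6, out of 55401 genes in the transcript tables. All 10 were found by symbol, each under 1 gene identifier, and their level is the FPKM (fragments per kilobase of transcript and per unit of library size), summed over the transcripts of the gene. All the mice were wild-type male C57/B6 animals that received a high-fat diet from the age of 8 weeks. The obesity group (Ob, 2 libraries) had no further intervention, and the exercised obese mice (Ob + Exe, 2 libraries) ran on a treadmill at moderate intensity for 12 weeks under the same diet. The study gives as many tibial marrow samples as libraries in each group, and the p-values measure the spread between these samples.

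B cells arise in the bone marrow from lymphoid progenitors, and a small network of factors directs each step. Ikzf1 (Ikaros) opens the lymphoid programme, Tcf3 (the E proteins of the E2A locus) and Ebf1 specify the lineage, and Pax5 commits cells to it while Foxo1 permits the recombination of immunoglobulin genes. Irf4 and Spib act with pre-B receptor signalling, Bach2 and Bcl6 hold B cells short of plasma cell differentiation, and Pou2af1 is the B cell coactivator of octamer factors. Several of these genes are also used outside the lineage, Ikzf1 and Bcl6 in myeloid and T cells among others, so in whole marrow their level is a sum over cell types.

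The labels name bone marrow as tissue but also mesenchymal stem cells and fibroblast. In all 4 libraries the summed scaled FPKM of 10 neutrophil markers lay between 27205 and 62936 and that of 10 erythroid markers between 54613 and 81737, against 121 to 185 for 10 genes of stroma, bone and fat, so the RNA was that of marrow cells as a whole. The 9 B cell markers were all detected, with sums from 744 to 1666, of which Ighm, the heavy chain of IgM, held the largest part. The ratio of coverage to FPKM corresponds to 8702 to 9952 Mb of aligned sequence per library. A single factor had between 742 read equivalents (the covered bases of its transcripts, in units of 1 read) (Irf4 in Ob + Exe replicate 1) and 19544 (Ikzf1 in Ob replicate 1). Fewer B cells and less RNA per B cell cannot be told apart in such samples.

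In Ob the factors covered a 22.4-fold range of levels. FPKM is given per length, so the levels of different genes can be placed in order. Tcf3 stood first with a scaled FPKM of 58.4 ± 6.57 (SD, n = 2), followed by Ikzf1 with 53.9 ± 7.33 (SD, n = 2), and the libraries of these genes overlapped. Pou2af1 (mean 19.3) and Spib (17.9) came next and overlapped with each other, as did Bcl6 (12.6) and Pax5 (11.1). Ebf1 was lower at 5.03, apart from its neighbours on either side. Irf4 (3.87) and Bach2 (3.51) overlapped, and Foxo1 was the lowest at 2.61. In Ob + Exe the order was nearly the same, with Ikzf1 (54.6) before Tcf3 (47.7) and Bcl6 (13.2) before Spib (10.7), while the last 5 places did not change. Of the factors that specify and commit the lineage, Ebf1 and Pax5 were in the lower part of the order in both groups. Tcf3, which also specifies it, stood at or next to the top.

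**Figure D1:**
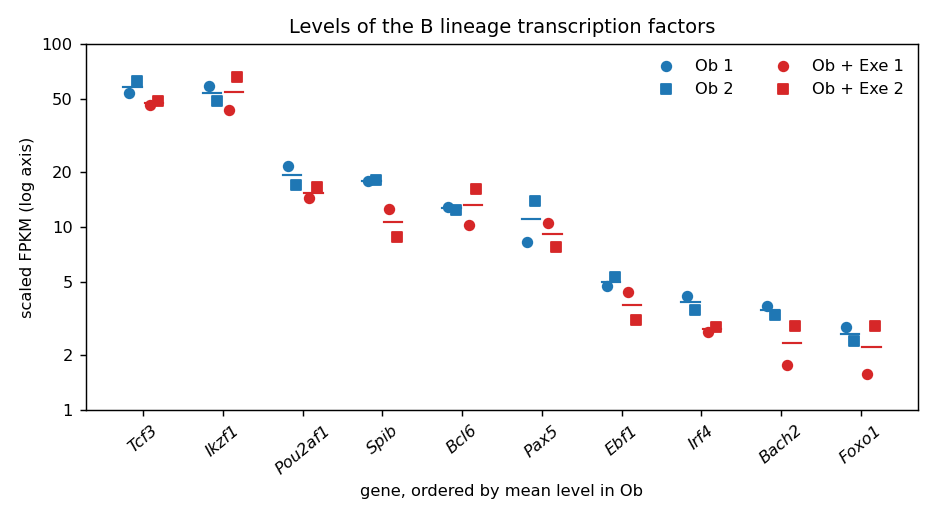
Scaled FPKM (log axis) of the 10 factors in each library, ordered by the mean in Ob; blue points are the 2 Ob libraries, red points the 2 Ob + Exe libraries, and short lines the group means. Spib, with 17.8 and 17.98 in Ob against 12.5 and 8.78 in Ob + Exe, shows the clearest gap between the groups, whereas the Pax5 points of the groups are interleaved.

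The comparison of Ob + Exe with Ob asks how exercise under a high-fat diet changed the marrow, and it was made over the 18596 genes whose mean FPKM reached 0.1, on log2(scaled FPKM + 0.1) with limma. All 10 factors were among the genes tested. Of the factors 6 were lower in both Ob + Exe libraries than in both Ob libraries (Spib, Bach2, Irf4, Ebf1, Pou2af1 and Tcf3), none was higher in both, and 4 overlapped (Foxo1, Pax5, Ikzf1 and Bcl6). Among all genes tested 18.7% were lower in both and 14.0% were higher in both. The median log2 fold change of the factors was -0.30, compared with -0.02 for all genes tested, and 9 of the 10 values were negative. These counts and medians are a description of a list that was chosen with earlier results of these data known, and no test was made over the list.

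None of the factors was called at the thresholds of the study, an unadjusted p under 0.05 together with a log2 fold change beyond 1. Among all genes tested 3.71% were called, 2.73% as lower and 0.979% as higher after exercise, and 0 of 10 factors is close to these shares. Spib alone had an unadjusted p under 0.05, which 3.48% of all genes had in the direction of lower values. After Benjamini-Hochberg adjustment of the limma p-values 0 genes stayed under 0.05, while 933 were under it before adjustment. With 2 libraries against 2, the smallest two-sided p of an exact permutation test is 0.333.

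**Figure D2:**
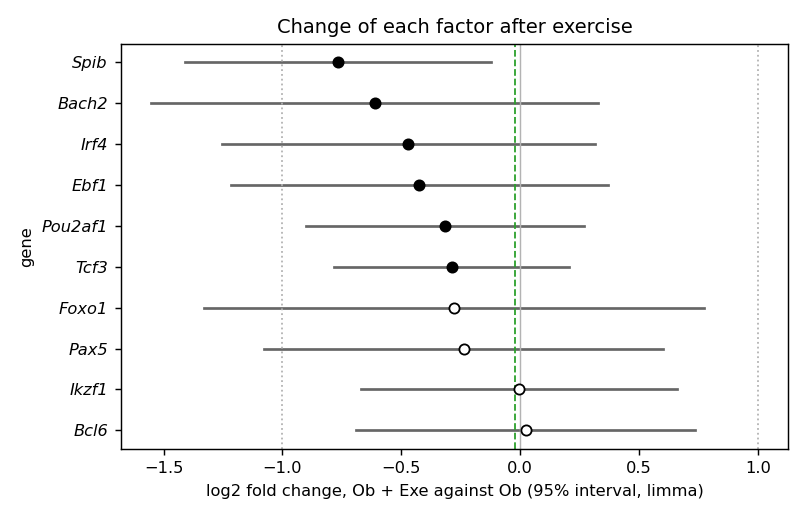
Log2 fold change of each factor in Ob + Exe against Ob with its 95% interval from limma; filled points are genes with both Ob + Exe libraries below both Ob libraries, the dashed line is the median of all genes tested and dotted lines mark a change of 1. The interval of Spib (-1.41 to -0.12) lies below 0, and the other 9 intervals include 0.

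Spib encodes an ETS factor closely related to Spi1, found in B cells and plasmacytoid dendritic cells. Ob replicates 1 and 2 had a scaled FPKM of 17.8 and 17.98, and Ob + Exe replicates 1 and 2 had 12.5 and 8.78. The Ob libraries were almost equal, and on the linear scale both exercise libraries were below them by more than they differed from each other. On the log2 scale of the test, the gap to the nearer exercise library was about as large as the difference between the exercise libraries. The group means were 17.9 ± 0.107 (SD, n = 2) and 10.7 ± 2.64 (SD, n = 2), so the mean in Ob + Exe was lower by 40.5%. The log2 fold change was -0.77 (standard error 0.261, unadjusted p = 0.0274 and adjusted p = 0.96 from limma). Without Ob + Exe replicate 1 the change was -1.02, past both thresholds of the study (unadjusted p = 0.0104 from limma). The unadjusted p was above 0.05 without any of the other libraries: 0.0597 without Ob + Exe replicate 2, 0.157 without Ob replicate 1 and 0.159 without Ob replicate 2. It was 0.0548 with the replicate number as a block and 0.0738 without the intensity trend of limma. The list of dendritic cell markers, plasmacytoid ones included, had sums of 67.6 and 74.97 in Ob against 93.8 and 41.6 in Ob + Exe, with 7 of 10 log2 fold changes negative and a median of -0.19. Among the plasmacytoid markers Bst2 had a value of -0.49, Klk1 of -0.80, Cox6a2 of -1.66, Ccr9 of -0.14 and Siglech of 0.28, none of them called. All of these overlapped between the groups. Cox6a2 had 1.94 and 1.09 in Ob against 2.34 and a listed 0 in Ob + Exe. In the whole list 1 gene was lower and 2 were higher in both exercise libraries. Cd209a was one of those higher in both (0.79, unadjusted p = 0.0271 from limma). The part of dendritic cells in the level of Spib was not tested.

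Bach2 and Irf4 act on the fate of activated B cells in opposite ways, Bach2 as a repressor of the plasma cell programme and Irf4 as one of its drivers. Bach2 had a scaled FPKM of 3.70 and 3.32 in Ob against 1.77 and 2.87 in Ob + Exe. Both exercise libraries were lower, but they were further apart than the nearest libraries of the groups. The log2 fold change was -0.61, with a 95% interval from -1.55 to 0.33 (adjusted p = 0.96 from limma). Without Ob + Exe replicate 2 it was -0.95 (unadjusted p = 0.0449 from limma), and without Ob + Exe replicate 1 it was -0.28. In limma voom on read equivalents the unadjusted p was 0.0314. Irf4 had 4.22 and 3.53 in Ob against 2.67 and 2.85 in Ob + Exe. Here the exercise libraries lay close together below the Ob libraries. The log2 fold change of Irf4 was -0.47, with an interval from -1.25 to 0.31 (adjusted p = 0.96 from limma).

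Ebf1, the factor that opens B cell genes in the earliest committed cells, had a scaled FPKM of 4.74 and 5.32 in Ob against 4.42 and 3.12 in Ob + Exe. The groups did not overlap, yet the higher exercise library was close to the lower Ob library. The log2 fold change was -0.42 (interval -1.22 to 0.37), with -0.67 when Ob + Exe replicate 1 was left out and -0.18 when replicate 2 was. Pax5, which Ebf1 activates, behaved differently between the libraries. Its values were 8.26 and 13.9 in Ob against 10.5 and 7.81 in Ob + Exe, so the difference between the Ob libraries was larger than that between the group means of 11.1 and 9.15. Its log2 fold change of -0.24 (interval -1.08 to 0.60) turned to 0.13 without Ob replicate 2.

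Tcf3 had a scaled FPKM of 53.8 and 63.1 in Ob against 46.6 and 48.9 in Ob + Exe. Both exercise libraries lay below both Ob libraries, with a log2 fold change of -0.29 (interval -0.78 to 0.21). Pou2af1 had 21.6 and 17.1 in Ob against 14.4 and 16.5 in Ob + Exe. The upper exercise library nearly reached the lower Ob library, and the log2 fold change was -0.32 (interval -0.90 to 0.27). For Tcf3 and Pou2af1 the adjusted p was 0.96 in limma, and the log2 fold change of both kept its sign in each of the 15 alternative settings.

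Ikzf1, Bcl6 and Foxo1 shared an order of the libraries that differed from that of the other factors, with Ob + Exe replicate 1 lowest and Ob + Exe replicate 2 highest. Ikzf1 had a scaled FPKM of 59.1 and 48.7 in Ob against 43.6 and 65.7 in Ob + Exe. Bcl6 had 12.9 and 12.4 in Ob against 10.2 and 16.1 in Ob + Exe. Foxo1 had 2.85 and 2.38 in Ob against 1.58 and 2.86 in Ob + Exe. For each of the 3 genes the Ob libraries lay between the exercise libraries, and the intervals of the log2 fold change reached to either side of 0, from -0.67 to 0.66 for Ikzf1, from -0.69 to 0.74 for Bcl6 and from -1.33 to 0.77 for Foxo1. The value of Bcl6 was 0.02. Its sign differed in 5 of the 15 alternative settings, which were no scaling (-0.06), quantile normalization, limma voom and leaving out Ob replicate 2 or Ob + Exe replicate 2. Leaving out single libraries moved Bcl6 between -0.30 (without Ob + Exe replicate 2) and 0.34 (without Ob + Exe replicate 1), Ikzf1 between -0.30 and 0.29 and Foxo1 between -0.69 and 0.13. The sums of erythroid markers had the same lowest and highest library, with 73451 and 73536 in Ob against 54613 and 81737 in Ob + Exe. Those of neutrophil markers were 47189 and 27205 in Ob against 34805 and 62936 in Ob + Exe. They were thus also highest in Ob + Exe replicate 2, but lowest in Ob replicate 2. None of the 10 neutrophil and 10 erythroid markers passed an unadjusted p of 0.05 in limma. The part of these cell types in the values of Ikzf1, Bcl6 and Foxo1 was not tested. The marker list with the lowest median log2 fold change was that of megakaryocytes (-0.93). In it 10 of 10 markers had a negative value and 3 were called, beside 3.71% of all genes tested. Its sums were 510 and 380 in Ob against 408 and 151 in Ob + Exe, so they overlapped between the groups. The part of megakaryocytes in the values of the factors was not tested either.

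Genes of early B cells and their progenitors were examined as a list of 21 genes, all tested. The list holds surrogate light chain and recombination genes beside progenitor genes such as Kit and Flt3. After exercise 20 had a negative log2 fold change and 13 were lower in both Ob + Exe libraries, with a median of -0.53, while of all genes tested 52.1% had a negative value and 18.7% were lower in both. Igll1, the surrogate light chain gene that Ebf1 and Tcf3 activate, had a scaled FPKM of 14.4 and 12.96 in Ob against 4.998 and 3.52 in Ob + Exe (log2 fold change -1.68, adjusted p = 0.943 from limma). Vpreb2, its partner at a low level, had 1.63 and 0.814 in Ob against 0.267 in Ob + Exe replicate 1, and was listed at 0 in the other exercise library. These were the 2 called genes of the list, both lower, and none was called as higher. Vpreb3 had 48.5 and 52.5 against 32.9 and 31.3 (log2 fold change -0.65), below the fold threshold. The most abundant gene of the list, Myb, had 52.0 and 63.9 in Ob against 58.0 and 47.9 in Ob + Exe, and Bst1, a surface enzyme that myeloid cells carry as well, was the one gene with a positive value (0.69).

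Among 20 genes of the antigen receptor and its signalling, 14 had a negative value and 1 was called. In both exercise libraries 7 were lower and 2 higher. Of all genes tested 3.71% were called, 18.7% were lower in both and 14.0% were higher in both. Cd79a, a direct target of Ebf1 and Pax5, had 48.3 and 44.6 in Ob against 21.6 and 23.4 in Ob + Exe (log2 fold change -1.04, adjusted p = 0.943 from limma). Its partner Cd79b had 69.6 and 63.0 in Ob against 57.1 and 45.2 in Ob + Exe, lower in both but not called (-0.38). Ighm had 1396 and 441 in Ob against 697 and 766 in Ob + Exe, where Ob replicate 1 stood apart, and Cd38 (-0.62), Fcrla (-0.53) and Ptpn6 (-0.25) were lower in both exercise libraries. The kinases Btk (0.23) and Lyn (0.25) were the 2 genes higher in both, neither of them called. Btk had 27.51 and 27.33 in Ob against 37.46 and 27.63 in Ob + Exe. Lyn had 53.25 and 50.92 in Ob against 53.36 and 71.42 in Ob + Exe. In each of these genes the lower exercise library was barely above the higher Ob library. The median of the list was -0.17. Of 21 genes of mature B cells none was called, 14 had a negative value and the median was -0.14. In that list Ighd had 57.8 and 56.8 against 52.0 and 32.1, and Fcer2a had 9.06 and 5.53 against 4.46 and 4.98. Cd74 and Cd37, which were abundant in the list, overlapped between the groups, and Cd40 had a log2 fold change of -0.56.

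Plasma cells use Irf4 and Pou2af1, and a list of their genes had no common direction. Of its 15 genes 7 had a negative and 8 a positive value, none was called, and the median was 0.02. Jchain had 312 and 142 in Ob against 252 and 350 in Ob + Exe. Xbp1 had 67.4 and 60.3 against 64.6 and 64.3. Edem1 (0.44) and Fkbp11 (1.02), genes of the secretory pathway, were higher in both exercise libraries without being called, and Sec11c had 0.15. The list also held 2 genes that were lower in both. Tnfrsf17 (-1.76) was among these and was listed at 0 in Ob + Exe replicate 1. For the Bcl6 programme, 9 of 12 germinal centre genes passed the minimum level, with 3 negative and 6 positive values and a median of 0.02, and none was called. Fas (0.17), Plxnb2 (0.25), Basp1 (-0.06) and Gcsam (-0.31) overlapped between the groups. Of 16 genes known to be activated by Foxo1, 11 had a negative value, none was called and the median was -0.16. Klf2, one of them, had 55.3 and 53.6 in Ob against 41.9 and 38.2 in Ob + Exe (-0.44). Rag2 (-0.45) and Blnk (-0.38) were lower in both exercise libraries as well, while Gadd45a (-0.14) and Cdkn1b (0.08) overlapped.

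Relatives of the factors, 19 of 22 with sufficient level, were spread evenly around 0, with 10 negative and 9 positive values, no call and a median of -0.05. Ikzf3 (Aiolos), the Ikaros relative of B cells, had 5.69 and 6.56 in Ob against 5.16 and 3.96 in Ob + Exe (log2 fold change -0.43). It was the only relative lower in both exercise libraries. Spi1, the closest relative of Spib and a leading factor of myeloid cells, had 91.8 and 59.9 in Ob against 72.7 and 91.1 in Ob + Exe (0.13). The interferon regulatory factors Irf8 (-0.16), Irf7 (-0.61) and Irf9 (-0.16) and the macrophage factor Spic (0.40) overlapped between the groups. Among 31 partners and inhibitors, 24 had a negative value, 9 were lower in both exercise libraries, none was called and the median was -0.14. Of all genes tested 18.7% were lower in both. Id3, an inhibitor that binds E proteins such as Tcf3, had 11.3 and 13.2 in Ob against 6.51 and 6.98 in Ob + Exe (log2 fold change -0.85, unadjusted p = 0.0138 from limma). Id2, the inhibitor with wide use in myeloid and natural killer cells, had 57.0 and 54.7 against 47.9 and 72.5 (0.08). Ldb1, an adaptor of Lmo2 complexes, had a log2 fold change of -0.56 (unadjusted p = 0.0342 from limma), while Lmo2 (-0.06) and Ezh2 (-0.07) had values near 0.

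**Figure D3:**
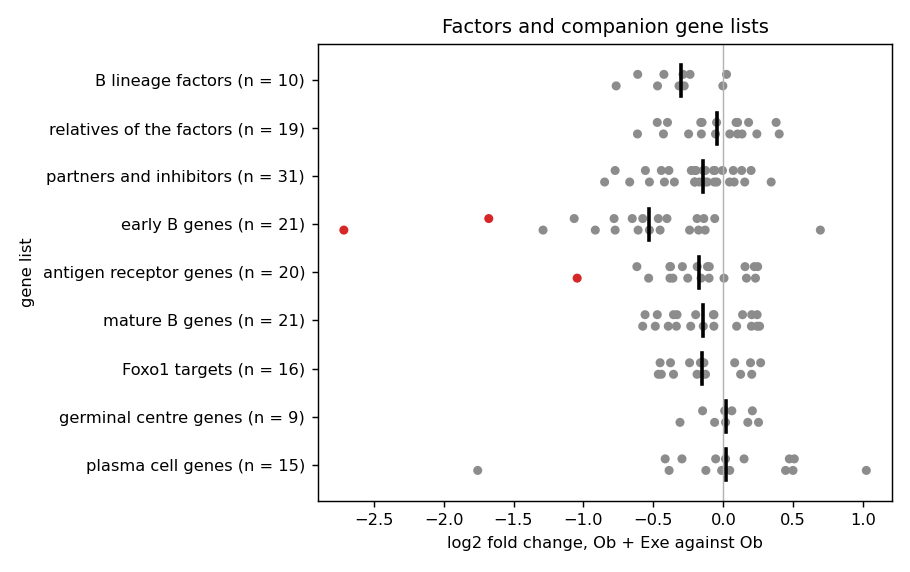
Log2 fold change of every tested gene in the factors and in 8 companion lists, with called genes in red and the list median as a black line. The early B genes have the lowest median (-0.53) and hold Igll1 and Vpreb2, and the germinal centre and plasma cell lists lie around 0 (0.02 each).

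Genes whose values ran most like those of a factor were sought among 12405 genes with a mean scaled FPKM of at least 1, by the mean absolute difference of the 4 centred log2 values. For Spib these were Ssbp4 (mean absolute difference 0.0213), Nlgn2 (0.0264) and Shank3 (0.0374). For Ebf1 they were Acin1 (0.0121), Stk3 (0.0164) and Phf7 (0.0167), and for Pax5 they were Ppp4r1l-ps (0.0305), 4931422A03Rik (0.0309) and Pkmyt1 (0.0365). None of these belongs to the B cell lists, and with 4 libraries and so many genes a like pattern is a description only.

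StringTie divides the reads over a gene among its transcripts by estimation, and a summed level depends less on that division where 1 transcript leads. A short transcript with few reads can still weigh in the sum, since FPKM is given per length. In Bach2 a transcript of 331 bases with 8.0 read equivalents held 15.3% of the FPKM in Ob + Exe replicate 2. For Bach2, Bcl6, Foxo1, Irf4, Pou2af1 and Spib the leading transcript was the same in all libraries and held at least 84.7% of the FPKM in each. Of Spib it held 97.8% and 98.6% in Ob against 97.3% and 99.1% in Ob + Exe, so the lower level of Spib was that of 1 transcript. Of Ebf1 the leading transcript held 91.2% and 98.8% in Ob against 74.5% and 97.5% in Ob + Exe. Of Ikzf1 it held 72.3% and 93.8% in Ob against 100% and 71.5% in Ob + Exe, so the exercise libraries were at the opposite ends of the range. For Tcf3 no transcript led throughout, and the share of the leading one ran from 16.8% in Ob replicate 2 to 58.3% in Ob + Exe replicate 2. These shares are estimates and were not tested.

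**Figure D4:**
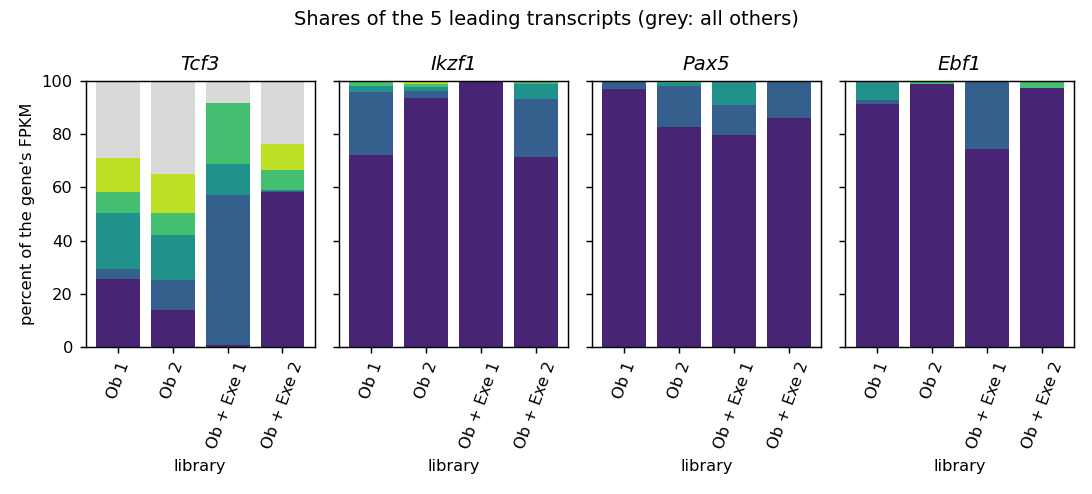
Share of a gene's FPKM in each library (percent) held by its 5 leading transcripts, for Tcf3, Ikzf1, Pax5 and Ebf1, with all other transcripts of the gene in grey. The division of Tcf3 differs among the libraries of the same group, while in Ebf1 and Pax5 1 transcript holds most of the FPKM everywhere.

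The factors are spread over the genome (GRCm38, all protein-coding). Pax5 (ENSMUSG00000014030.15) lies at chr4:44524757-44710487 and Bach2 (ENSMUSG00000040270.16) at chr4:32238804-32586108. Ebf1 (ENSMUSG00000057098.14) lies at chr11:44617317-45008091 and Ikzf1 (ENSMUSG00000018654.17) at chr11:11685003-11772926. Tcf3 (ENSMUSG00000020167.14) lies at chr10:80409514-80433647, Foxo1 (ENSMUSG00000044167.6) at chr3:52268336-52353221 and Pou2af1 (ENSMUSG00000032053.8) at chr9:51213708-51240080. Irf4 (ENSMUSG00000021356.10) lies at chr13:30749226-30766976, Spib (ENSMUSG00000008193.13) at chr7:44525993-44532071 and Bcl6 (ENSMUSG00000022508.5) at chr16:23965052-23988852. Genes that overlap 7 of them held at most 25.1 read equivalents on average, against 1303 or more for these 7 factors.

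Since the factors regulate one another, the 250 bases before the start site were searched on both strands for their known motifs, in RefSeq promoters of GRCm38.p6. For 8 factors the RefSeq start lay within 300 bases of that of the leading transcript, and Ebf1 and Bach2 were left out. The EBF motif CCCNNGGGA was in 1 of the 8, Foxo1, and in 5.53% of 27025 promoters. The E2A type of E-box, CAGNTG, was in Spib alone and in 44.5% of all promoters, and the ETS motif GAGGAA was in Irf4 and Bcl6 and in 23.1%. The octamer ATGCAAAT (1.61% of all), the FOXO motif GTAAACA (3.09%) and the Ikaros motif TGGGAA (21.5%) were in none of the 8. A match is a run of letters and not a measured binding site. Bcl6 also holds a motif of another factor, but its window is not printed here. The windows of Spib (chr7:44532072-44532321, minus strand), Irf4 (chr13:30748983-30749232, plus strand) and Foxo1 (chr3:52268087-52268336, plus strand) are given because each holds a motif of another factor, in capitals (in Foxo1 a pair of overlapping EBF matches on opposite strands, in Irf4 the ETS motif on the minus strand).
Spib: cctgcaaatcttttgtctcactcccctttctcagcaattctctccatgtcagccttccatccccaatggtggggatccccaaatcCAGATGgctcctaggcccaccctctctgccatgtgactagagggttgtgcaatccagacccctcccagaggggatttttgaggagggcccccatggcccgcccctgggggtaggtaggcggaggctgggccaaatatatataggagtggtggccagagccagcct
Irf4: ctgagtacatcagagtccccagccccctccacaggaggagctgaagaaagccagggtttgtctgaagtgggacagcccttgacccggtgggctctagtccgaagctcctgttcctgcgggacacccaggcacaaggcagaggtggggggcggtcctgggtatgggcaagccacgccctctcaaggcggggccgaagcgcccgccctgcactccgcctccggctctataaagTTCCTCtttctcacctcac
Foxo1: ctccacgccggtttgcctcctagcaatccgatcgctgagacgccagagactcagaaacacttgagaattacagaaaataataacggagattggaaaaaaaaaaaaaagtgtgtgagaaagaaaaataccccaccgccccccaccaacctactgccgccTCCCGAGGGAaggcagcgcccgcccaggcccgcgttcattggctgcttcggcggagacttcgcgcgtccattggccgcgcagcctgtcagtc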

How the data were processed

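Bone marrow RNA of 4 libraries (Ob, 2; Ob + Exe, 2) was sequenced by the authors, and reads were trimmed with fastp, aligned with HISAT2 to GRCm38 and assembled with StringTie, per the submitters' processing notes and the methods. The deposited tables give, per transcript, the coverage (signal: mean reads per base) and the FPKM as the authors' StringTie runs wrote them. No counts were used, so count tests were not run. FPKM were summed per gene, scaled by median of ratios over genes whose mean FPKM reached 1, and tested as log2(scaled FPKM + 0.1) with limma 3.58.1 (R 4.3.3, intensity trend) for genes whose mean FPKM reached 0.1, with Benjamini-Hochberg adjustment. The scripts were tested on simulated data. A fold change on this scale understates the change of low genes. Read equivalents, from coverage with a read length of 150, describe depth and were the input of limma voom, an alternative. A gene was called when its log2 fold change was beyond 1 and its unadjusted p below 0.05, the study's thresholds. The factors and all gene lists were chosen with earlier results of these data known. Of each companion list, names were taken from the called genes, the 3 most abundant and the 3 with the smallest p, and Btk, Lyn, Ccr9, Kit and Flt3 were added after their values were seen. Some genes of these lists are not reported here. Replicate numbers come from the labels. Alternatives were the minimum level, pseudocount, scaling, tool, trend, replicate block and leaving out each library.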

Additional observations from a re-analysis of the deposited data

How the results depend on the processing

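The count of 690 called genes depended on the processing. It was 267 with a minimum mean FPKM of 1, 224 with a pseudocount of 1, 455 in limma voom on read equivalents, 1061 without the intensity trend and 433 with protein-coding transcripts only, a setting chosen after seeing the data. Leaving out 1 library gave 599 (without Ob replicate 2) to 1846 genes (without Ob + Exe replicate 2), with 1222 without Ob + Exe replicate 1; the lone library of a group is then assumed to vary like the others. Quantile normalization moved the share of called genes that were lower from 73.6% to 62.8%. The causes were not tested. Same-numbered libraries did not deviate together (correlation across genes -0.106, and -0.244 across genes with a mean scaled FPKM of at least 1). The replicate block gave 776 calls, while 28 genes passed adjustment at 0.05 in limma, and with the crossed pairing, chosen after seeing the data, 782 and 6. The count of called factors was 0, and 0 to 1 when single libraries were left out (Spib without Ob + Exe replicate 1). The median of the factors stayed negative, from -0.37 to -0.27 without single libraries. Spib, Bach2, Irf4, Ebf1, Pou2af1 and Tcf3 kept their sign in all 15 alternatives. The early B median was -0.38 with a pseudocount of 1 and -0.61 without scaling. With 2 libraries a group, factors at the level of Foxo1 have wide intervals.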
